A study of Mus musculus with 4 samples.

Results

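The genes described here are 9 components of the lysosome: the proteases *Ctss*, *Ctsb*, *Ctsd*, *Ctsz* and *Ctsc*, the glycosidase *Hexa*, the secreted and lysosomal protein *Grn*, and the membrane proteins *Lamp1* and *Lamp2*. They were taken by gene name from the 24637 genes of the deposited expression table, and all 9 were found and passed the filter on low values. Messenger RNA was sequenced from 2 WT ESC lines, labelled Taf4+/+, and from 2 *Taf4a*-/- lines, labelled Taf4-/-, after 5 days as embryoid bodies in serum-containing medium and 9 days on gelatin-coated plates. All lines came from blastocysts of heterozygous crosses of C57Bl6J mice and had been kept on inactivated embryonic fibroblasts before differentiation, and the null allele lacks internal exons of *Taf4a* in every cell rather than in a chosen cell type. For its RNA-seq the paper describes 2 biological replicates and 2 independent lines of each genotype. The sample titles give replicate numbers and do not name the line of each library. Differences between lines and differences between genotypes rest on 2 libraries a side.

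The lysosome is the acidic compartment in which proteins, glycans, lipids and nucleic acids are broken down. Its proteases, the cathepsins, are made as inactive precursors, tagged with mannose-6-phosphate in the Golgi and matured by cleavage in the acidic lumen, while heavily glycosylated proteins such as Lamp1 and Lamp2 line the membrane. Most of these genes are active in nearly all cells. Macrophages, which digest engulfed material, hold many lysosomes, and cathepsin S in particular is abundant in macrophages and other antigen-presenting cells, where it processes the invariant chain of MHC class II.

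At an adjusted p under 0.05, *Taf4a*-/- libraries had lower levels of 7 of the 9 genes and higher levels of none. The 7 were *Ctss*, *Ctsb*, *Ctsz*, *Ctsc*, *Ctsd*, *Hexa* and *Grn*, and *Lamp1* and *Lamp2* did not pass. Among all 16926 genes tested, 17.3% were called lower and 11.3% higher, in limma on log2(normalized counts + 1), the scale of all fold changes given below. No member was higher at an unadjusted p under 0.05 either, and limma's voom on the recovered reads also called 7 lower and 0 higher. For all 9 genes both *Taf4a*-/- libraries lay below both WT libraries, which was also so for 36.6% of all genes tested. The median log2 fold change of the 9 was -1.39, beside -0.01 over all genes. Together the 9 genes made up 0.297% and 0.355% of a WT library's total and 0.175% and 0.173% of a *Taf4a*-/- library's total.

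**Figure D1:**
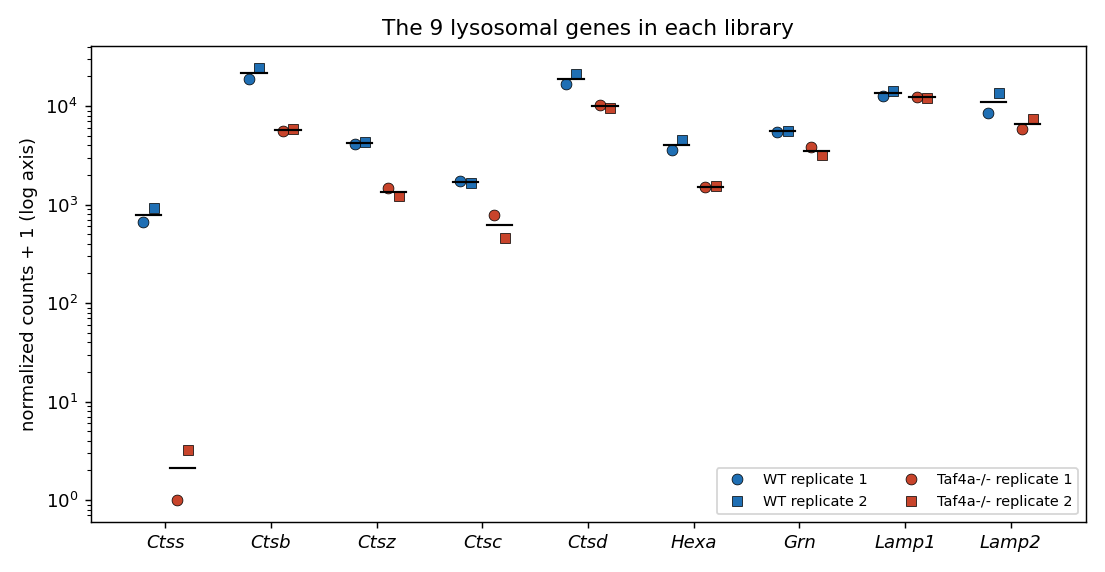
Normalized counts + 1 of each of the 9 genes (log axis) in the 4 libraries, 1 point a library, with WT in blue, *Taf4a*-/- in red and a bar at each group's mean. Both red points lie below both blue points for every gene, with the widest gap for *Ctss* and the narrowest for *Lamp1*.

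The libraries held between 21732746 and 27733034 reads on genes. For *Taf4a* itself the WT values were 889 and 678 normalized counts. The libraries labelled *Taf4a*-/- held 1722 and 1799, a log2 fold change of 1.18 (SE 0.16, adjusted p = 0.00569 from limma). The gene-level count thus showed no loss of transcript, and genotypes are named as labelled. For *Taf4a*-/- ESCs the paper reports absence of the Taf4 protein by immunostaining. Exons were not counted apart, so the deleted ones could not be looked at, and 62 bases of the gene overlap *4921531C22Rik* on the other strand. The differentiation was directed at cardiac cells, and all 7 cardiomyocyte markers were detected, with summed values of 22489 and 24374 in WT and of 1973 and 2329 in *Taf4a*-/-. All 17 macrophage markers were lower in *Taf4a*-/-. In such bulk samples, fewer cells of a type and less RNA per cell cannot be told apart.

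*Ctss*, which encodes cathepsin S, lies on chromosome 3 (NCBIM37, 95330708 to 95360325, plus strand, ENSMUSG00000038642). Normalized counts were 663 in WT replicate 1 and 920 in WT replicate 2, against 0 in *Taf4a*-/- replicate 1 and 2.21 in *Taf4a*-/- replicate 2. The transcript was thus present in both WT libraries and all but undetected in both *Taf4a*-/- libraries, where 2 reads stood against 1641 in WT. The ratio of WT to *Taf4a*-/- was 751 with a 95% exact interval for counting error of 208 to 6209. The fitted log2 fold change was -8.77 (SE 0.60, adjusted p = 0.00109), the 7th lowest of the 16926 genes. Its size depends on the pseudocount, from -6.16 with 10 added to -9.39 with 0.5 added, and the gene was called under all 14 alternatives tried.

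Beside it, the 17 macrophage markers had summed values of 15013 and 19136 in WT and of 144 and 344 in *Taf4a*-/-, with log2 fold changes from -9.51 to -3.97. *Csf1r*, the receptor for the macrophage growth factor, had 2825 and 3159 normalized counts in WT and 36.2 and 47.6 in *Taf4a*-/-. *Sfpi1*, which encodes the myeloid transcription factor PU.1, had 324 and 343 in WT and 2.94 and 14.4 in *Taf4a*-/-. *C1qa*, a complement component made by macrophages, was the marker at 0 in both *Taf4a*-/- libraries, at least 233-fold lower than in WT. The list moved with *Ctss*, and its part in the changes of the 9 genes was not tested.

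The promoter of *Ctss* is shown because it holds the letters GAGGAA, the core of PU.1 sites, and TATAAA, the letters of the TATA box. It spans chr3:95526536-95526835 on the plus strand (RefSeq, GRCm38.p6, from 250 bases before the transcript start to 50 after it). Capitals mark the motifs on either strand. Here TATAAA lies on the minus strand with its first base at -233, far from the start site. The PU.1 core is held as GAGGAA and as its reverse complement at the start site.
Ctss: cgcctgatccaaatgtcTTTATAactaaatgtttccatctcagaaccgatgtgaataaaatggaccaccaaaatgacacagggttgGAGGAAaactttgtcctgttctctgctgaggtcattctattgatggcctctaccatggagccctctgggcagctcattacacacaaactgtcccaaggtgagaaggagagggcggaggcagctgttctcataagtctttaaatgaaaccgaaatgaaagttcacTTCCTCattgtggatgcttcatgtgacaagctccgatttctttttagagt

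*Ctsb* and *Ctsz* fell by log2 changes of 1.90 and 1.65. *Ctsb*, a cysteine protease with both endopeptidase and carboxydipeptidase activity, had 18615 and 24608 normalized counts in WT and 5591 and 5914 in *Taf4a*-/-, which is 26.6% of the WT mean (log2 fold change -1.90, 95% interval -2.30 to -1.49, adjusted p = 0.00172). It lies on chromosome 14 (63741302 to 63764758) and overlaps *Fdft1* on the other strand over 769 bases, and reads of the kit carry no strand. Shorter overlaps are those of *Lamp1* with *Grtp1* (177 bases), *Ctsd* with *6330512M04Rik* on the same strand (163) and *Ctsz* with *Th1l* (10). *Ctsz*, a carboxypeptidase of the same family on chromosome 2 (174252994 to 174264540), had 4151 and 4347 in WT and 1478 and 1232 in *Taf4a*-/-, 31.9% of WT (log2 fold change -1.65, 95% interval -1.98 to -1.33, adjusted p = 0.00139). The groups of both genes stand well apart, and the calls held under all 14 alternatives.

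*Ctsc* encodes the dipeptidyl peptidase that activates serine proteases of immune cell granules. It had 1746 and 1641 normalized counts in WT and 787 and 461 in *Taf4a*-/-, 36.9% of WT, with a log2 fold change of -1.49 (SE 0.25, adjusted p = 0.0104). The *Taf4a*-/- libraries differed from each other by 0.77 on the log2 scale, the widest gap within that genotype apart from *Ctss*. The call was lost without WT replicate 1 (adjusted p = 0.0567) and without WT replicate 2 (adjusted p = 0.0739), and the range over the alternatives ran from 0.000301 to 0.0739. *Ctsc* lies on chromosome 7 (95426595 to 95459398).

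*Ctsd* encodes the aspartic protease of the lysosome, lies on chromosome 7 (149557053 to 149573943, minus strand) and was the most abundant of the 9 per kilobase in WT. It had 16729 and 21150 normalized counts in WT and 10289 and 9621 in *Taf4a*-/-, 52.6% of WT (log2 fold change -0.92, 95% interval -1.30 to -0.54, adjusted p = 0.0109). Both *Taf4a*-/- values lie close together and under both WT values, and the spread is larger in WT. The adjusted p rose to 0.0696 without *Taf4a*-/- replicate 2, in a range of 0.00947 to 0.0696 over the alternatives. Its promoter is shown for its CACGTG E-boxes, in capitals, of which the second lies within TCACGTGA, the core bound by Tfeb, a regulator of lysosomal genes (chr7:142387778-142388077, minus strand, RefSeq, GRCm38.p6).
Ctsd: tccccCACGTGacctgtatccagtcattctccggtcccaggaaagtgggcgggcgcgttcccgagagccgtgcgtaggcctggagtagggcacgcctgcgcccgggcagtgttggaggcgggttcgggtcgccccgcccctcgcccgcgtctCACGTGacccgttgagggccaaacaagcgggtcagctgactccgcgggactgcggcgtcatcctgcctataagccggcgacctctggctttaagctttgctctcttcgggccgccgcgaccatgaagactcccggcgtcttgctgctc

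*Hexa* encodes the alpha subunit of beta-hexosaminidase, which degrades GM2 ganglioside, and lies on chromosome 9 (59387474 to 59412914). It had 3570 and 4481 normalized counts in WT and 1492 and 1554 in *Taf4a*-/-, 37.8% of WT (log2 fold change -1.39, 95% interval -1.74 to -1.04, adjusted p = 0.00271), and was called under all alternatives. *Gm2a*, the activator that presents the lipid to the enzyme, had 1702 and 2863 in WT and 915 and 710 in *Taf4a*-/- (log2 fold change -1.45, adjusted p = 0.0131). Both genes were thus lower in *Taf4a*-/-, each with both values below both WT values, which was also so for 36.6% of all genes tested.

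*Grn* encodes progranulin, a secreted protein that is taken up and cut into granulins in the lysosome, and lies on chromosome 11 (102291629 to 102298123). It had 5506 and 5631 normalized counts in WT and 3802 and 3172 in *Taf4a*-/-, 62.6% of WT (log2 fold change -0.68, SE 0.13, adjusted p = 0.0153). Both WT values lie close together and above both *Taf4a*-/- values. The call was lost without WT replicate 2 (adjusted p = 0.0647) and without *Taf4a*-/- replicate 2 (adjusted p = 0.138), in a range of 0.0137 to 0.138 over the alternatives.

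*Lamp1*, a main glycoprotein of the lysosomal membrane on chromosome 8 (13159135 to 13175338), was the member with the smallest difference. It had 12754 and 14114 normalized counts in WT and 12386 and 12182 in *Taf4a*-/-, 91.4% of WT. The log2 fold change was -0.13 (95% interval -0.44 to 0.18, adjusted p = 0.480), and it was called under none of the alternatives. Both groups come close to touching, with the lower WT value just above the higher *Taf4a*-/- value. Its promoter is shown because it holds 4 E-boxes before the start site, in capitals (chr8:13158911-13159210, plus strand, RefSeq, GRCm38.p6).
Lamp1: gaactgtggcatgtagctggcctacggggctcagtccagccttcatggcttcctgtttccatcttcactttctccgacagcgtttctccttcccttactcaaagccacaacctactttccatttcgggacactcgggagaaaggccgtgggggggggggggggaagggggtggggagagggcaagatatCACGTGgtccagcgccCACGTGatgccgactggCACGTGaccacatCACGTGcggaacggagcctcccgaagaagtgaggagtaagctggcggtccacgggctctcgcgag

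*Lamp2*, the related membrane protein that also serves chaperone-mediated autophagy, lies on chromosome X (35754534 to 35809631). It had 8546 and 13634 normalized counts in WT and 5802 and 7366 in *Taf4a*-/-, 59.4% of WT. Its log2 fold change of -0.72 (95% interval -1.31 to -0.13) had an unadjusted p of 0.0240 and an adjusted p of 0.0706 from limma. The WT libraries differed by 0.67 on the log2 scale, more than those of any other member. Without WT replicate 1 the change was -1.06 and passed the test (adjusted p = 0.0270), whereas without WT replicate 2 it was -0.39 and did not (adjusted p = 0.204), and over the alternatives the adjusted p ran from 0.0248 to 0.265.

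**Figure D2:**
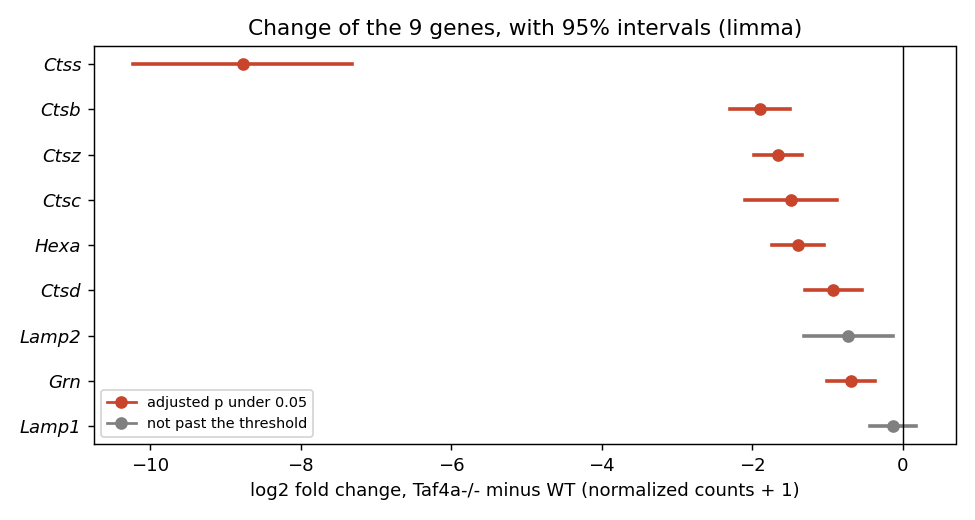
Log2 fold change of each gene, *Taf4a*-/- minus WT on normalized counts + 1, with lines for the 95% intervals from limma, in red where the adjusted p was under 0.05 and in grey where it was not. The estimates run from -8.77 for *Ctss* to -0.13 for *Lamp1*, the gene whose interval includes 0.

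To compare levels between genes, normalized counts were divided by the length of the merged exons in kilobases. In WT the order was *Ctsd* (7519 ± 1241 per kb, SD, n = 2), *Lamp1* (5957 ± 427), *Ctsb* (4561 ± 894), *Ctsz* (2949 ± 96.3), *Hexa* (2154 ± 345), *Grn* (1764 ± 28.0), *Lamp2* (1161 ± 377), *Ctss* (583 ± 134) and *Ctsc* (292 ± 12.8). The ranges of neighbours in this order did not overlap. In *Taf4a*-/- *Lamp1* came first (5448 ± 63.9 per kb) before *Ctsd* (3952 ± 188), and *Ctss* came last (0.814 ± 1.15). Between them *Ctsb* (1214 ± 48.2 per kb), *Grn* (1105 ± 141) and *Ctsz* (940 ± 121) overlapped from one to the next. Merged exons of 9552 bases for *Lamp2* and 5801 for *Ctsc* lower their values per kb where the long forms are not the ones expressed.

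The levels were also set against *Lamp1* in the same library, the member that differed least between genotypes, so that the other genes keep most of their differences by construction. Per kilobase, *Ctsb* was at 69.5% and 83.0% of *Lamp1* in WT and at 21.5% and 23.1% in *Taf4a*-/-. *Ctsd* was at 117% and 134% in WT and at 74.4% and 70.7% in *Taf4a*-/-. *Ctss* was at 8.63% and 10.8% in WT, and at 0% and 0.0302% in *Taf4a*-/-. *Grn* was at 30.8% and 28.5% and at 21.9% and 18.6%. For *Lamp2* the ranges were 15.8% to 22.8% in WT and 11.1% to 14.3% in *Taf4a*-/-, and for all 8 genes both *Taf4a*-/- libraries lay below both WT libraries, as they did for 29.9% of the 16925 tested genes other than *Lamp1* on the same measure. With 2 libraries a side, an exact permutation test cannot go below 0.333, and none was run.

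**Figure D3:**
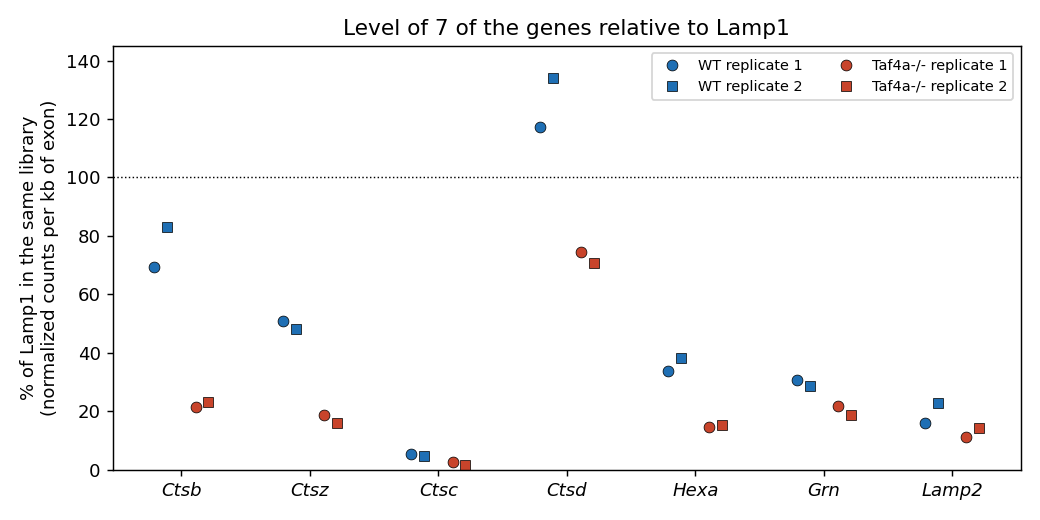
Level per kilobase of exon of 7 of the genes as a percentage of *Lamp1* in the same library, on a linear axis with 1 point a library and a dotted line at 100%. *Ctss* is left out, and in the other genes both *Taf4a*-/- points lie below both WT points, with *Ctsd* above 100% in WT and below it in *Taf4a*-/-.

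The other lysosomal genes, not all of them components of the lysosome, were followed by role. The set includes cystatin inhibitors, granule serine proteases, tagging and sorting genes and MiT transcription factors. Of 98 tested, 44 were lower (44.9%, beside 17.3% of all genes), 3 were higher and 51 did not pass, with a median log2 fold change of -0.49. This count moved with the fit. Without a variance trend it was 15, while the number of all tested genes called lower went from 2928 to 1741. It also moved when 1 library was left out, which leaves 1 library in a group. Under quantile normalization the median over all genes moved from -0.01 to 0.11 on the log2 scale, and the medians of the lists of other lysosomal proteases, hydrolases and membrane proteins stayed below 0, while that of the 6 sorting genes, -0.04, turned to 0.02. The lists share no gene with the 9 and were chosen with earlier results of these data known.

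Of 12 other lysosomal proteases tested, 9 were lower and none was higher. *Ctsk*, the collagen-degrading cathepsin of osteoclasts, had 71.0 and 105 normalized counts in WT and 4.89 and 9.95 in *Taf4a*-/- (log2 fold change -3.44, adjusted p = 0.00579). *Ctsh*, an aminopeptidase, had 4059 and 3490 in WT and 800 and 530 in *Taf4a*-/- (log2 fold change -2.53, adjusted p = 0.00150). *Lgmn*, legumain, which cleaves after asparagine and matures cathepsins, fell by 1.75 on the log2 scale. *Ctsl*, a cysteine endopeptidase chosen after its values were seen, had 20043 and 26295 in WT and 19134 and 13011 in *Taf4a*-/- and did not pass (adjusted p = 0.130). Both tested cystatins, the inhibitors of these enzymes, were lower, *Cst3* with a log2 fold change of -0.99 and *Cstb* with -0.70. *Prtn3*, a granule serine protease activated by cathepsin C, was the 1 of its kind tested and was higher, with 31.6 and 39.5 normalized counts in WT and 143 and 134 in *Taf4a*-/- (log2 fold change 1.94, adjusted p = 0.00727).

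Of 17 glycosidases and other enzymes of glycan breakdown 10 were lower (58.8%, beside 17.3% of all genes). Among them were *Aga* (log2 fold change -1.47) and the hyaluronidase *Hyal1* (-1.26). Of 8 sulfatases 3 were lower (37.5%) and 1 higher, beside 17.3% lower and 11.3% higher among all genes. *Arsb* had 408 and 544 normalized counts in WT and 105 and 139 in *Taf4a*-/- (log2 fold change -1.95). *Sgsh*, the heparan sulfatase, was the higher one, with 318 and 310 in WT and 683 and 555 in *Taf4a*-/- (log2 fold change 0.97, adjusted p = 0.0123). *Lipa*, the acid lipase of cholesteryl esters, had the largest fall of the 11 lipases, phosphatases and nucleases. Of these 3 were lower (27.3%, beside 17.3% of all genes). *Lipa* was among them. It had 3303 and 6098 normalized counts in WT and 376 and 629 in *Taf4a*-/- (log2 fold change -3.20, adjusted p = 0.00309). All 4 activators and lipid transfer proteins were lower, among them *Psap*, the precursor of the saposins, with 12525 and 14746 in WT and 8095 and 7958 in *Taf4a*-/- (log2 fold change -0.76).

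Among 15 other membrane proteins 6 were lower (40.0%) and 1 higher, beside 17.3% lower and 11.3% higher among all genes. Those that fell most are known from macrophages: *Slc11a1*, a metal transporter of the phagosome (log2 fold change -5.39), *Laptm5* (-3.60) and *Cd68*, which had 808 and 1169 normalized counts in WT and 141 and 121 in *Taf4a*-/- (-2.89). *Mcoln1*, the lysosomal calcium channel, was higher, with 947 and 914 in WT and 1439 and 1297 in *Taf4a*-/- (log2 fold change 0.55, adjusted p = 0.0243). Of 18 subunits of the proton pump 4 were lower (22.2%), a share near the 17.3% of all genes. They included *Tcirg1* (log2 fold change -0.75) and *Atp6v0d2*. The latter had 37.7 and 96.6 in WT and 0 in both *Taf4a*-/- libraries, at least 21.5-fold lower. None of the 6 genes of mannose-6-phosphate tagging and sorting was called, 0 also at an unadjusted p under 0.05 and in voom. *Igf2r*, the receptor that carries the tagged enzymes, had 42372 and 5562 normalized counts in WT and 30544 and 28657 in *Taf4a*-/-, so the WT libraries lie on both sides.

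Of the 4 MiT family transcription factors, which control lysosomal genes, 3 were lower. *Tcfec*, the member found in myeloid cells, had 158 and 182 normalized counts in WT and 12.7 and 7.74 in *Taf4a*-/- (log2 fold change -3.96, adjusted p = 0.00220). *Mitf* had a log2 fold change of -1.69 and *Tcfeb* of -1.11, with 315 and 460 in WT and 178 and 174 in *Taf4a*-/-. *Tcfe3* had 1632 and 1723 in WT and 1862 and 2861 in *Taf4a*-/- and did not pass (log2 fold change 0.46, adjusted p = 0.146).

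**Figure D4:**
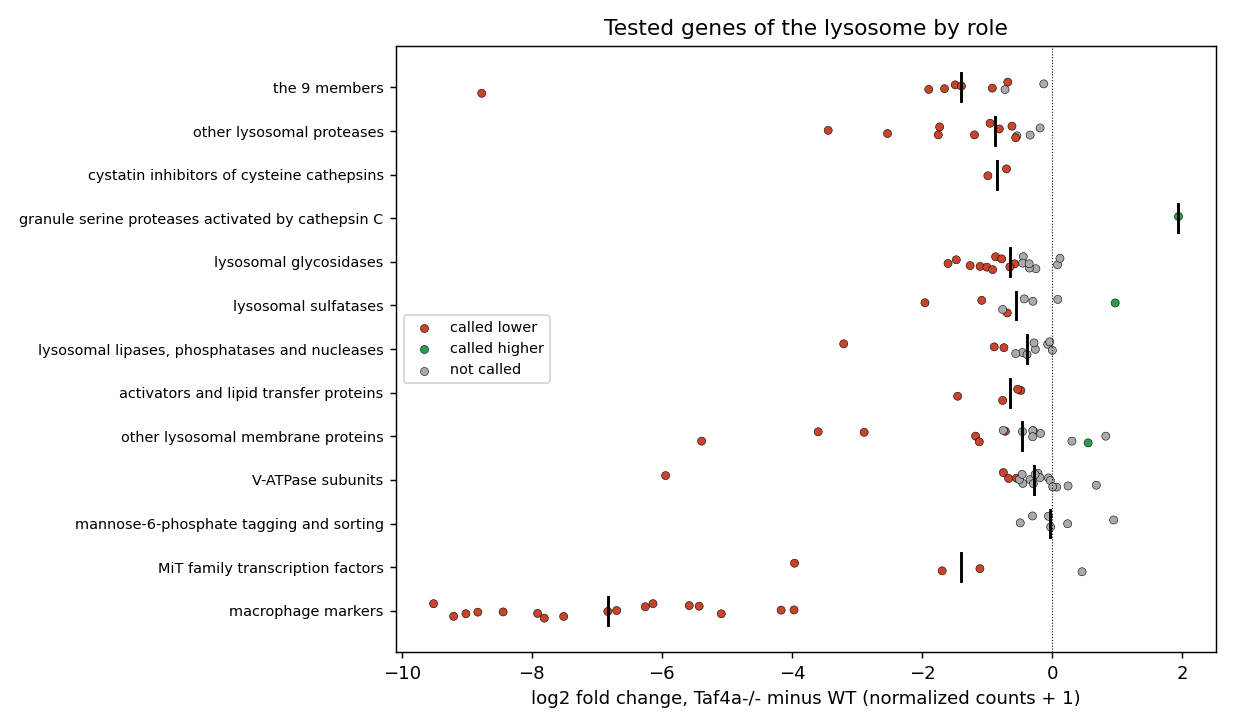
Log2 fold change, *Taf4a*-/- minus WT on normalized counts + 1, of every tested gene of the 9 members, the other lysosomal genes by role and the macrophage markers, with red for called lower, green for called higher, grey for not called and a bar at each median; points are spread vertically for legibility. The 17 macrophage markers are all called lower, and none of the 6 sorting genes is called.

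Other markers moved too, in data where 17.3% of all genes tested were called lower and 11.3% higher. Of 10 markers of visceral endoderm and liver 9 were lower, with summed values of 89321 and 70917 in WT and 4278 and 2942 in *Taf4a*-/-, and of 8 markers of fibroblasts and mesenchyme 7 were lower, with sums of 429319 and 596621 in WT and 48130 and 60341 in *Taf4a*-/-. All 6 pluripotent cell markers were higher, with sums of 3515 and 1346 in WT and 12470 and 14380 in *Taf4a*-/-. No marker of endothelium (4 tested) or red cells (5 tested) was called, also 0 in voom, with 1 endothelial marker lower at an unadjusted p under 0.05. Endothelial sums were 9846 and 6680 in WT and 5260 and 8391 in *Taf4a*-/-. Red cell sums were 3147 and 1209 in WT and 1788 and 10468 in *Taf4a*-/-. Libraries of 1 genotype thus differed widely in the red cell markers, so the lack of calls does not show equal levels. The share of these cell types in the changes of the 9 genes was not tested.

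Genes whose profiles over the 4 libraries are most like those of the members were found by Euclidean distance between centred log2 profiles, among 12536 genes with a mean of at least 100. *Ctss* was nearest to *Fcrls* (distance 0.52), which encodes a Fc receptor-like protein of macrophages and microglia, and then to *Aqp8* (0.83). *Fcrls* had 1068 and 1364 normalized counts in WT and 0 and 3.32 in *Taf4a*-/-. The other 8 members lay much closer to their neighbours: *Ctsd* to *Ehd3* (0.029), *Lamp1* to *Ppp2r2a* (0.033), *Grn* to *Rps16* (0.040), *Hexa* to *Tmem176b* (0.051), *Ctsz* to *Dab2* (0.058), *Ctsb* to *Gm14032* (0.084), *Lamp2* to *Zfp583* (0.091) and *Ctsc* to *Synpo2l* (0.139). The nearest other member to *Ctss* was *Ctsb* at 6.97, with 488 genes nearer. Profiles were not scaled to the size of a change, so distances grow with it, and *Ctss* had the largest change of the members. The 4 libraries form 2 groups, so these distances are a description only.

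Promoters were found in RefSeq for 8 of the 9 genes, all but *Ctsb*. The E-box CACGTG lay in 2 of them, *Lamp1* with 4 copies and *Ctsd* with 2, beside 7.15% of all 32851 promoters of the same length and 21.88% of the 96 promoters of other lysosomal genes. The PU.1 core GAGGAA lay in 4, *Ctss*, *Ctsc*, *Lamp2* and *Grn*, beside 28.28% of all promoters, 27.08% of the other lysosomal ones and 66.67% of 12 macrophage marker promoters. TATAAA lay in that of *Ctss* and in 13.62% of all promoters. *Ctsz* and *Hexa* held none of these letters. Both the members with an E-box and those with a PU.1 core included genes that were called and a gene that was not, *Lamp1* and *Lamp2* respectively, and *Ctsz* and *Hexa* were called with neither. Both strands were searched, the E-box is contained in TCACGTGA, and a match is a description of letters only.

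**Figure D5:**
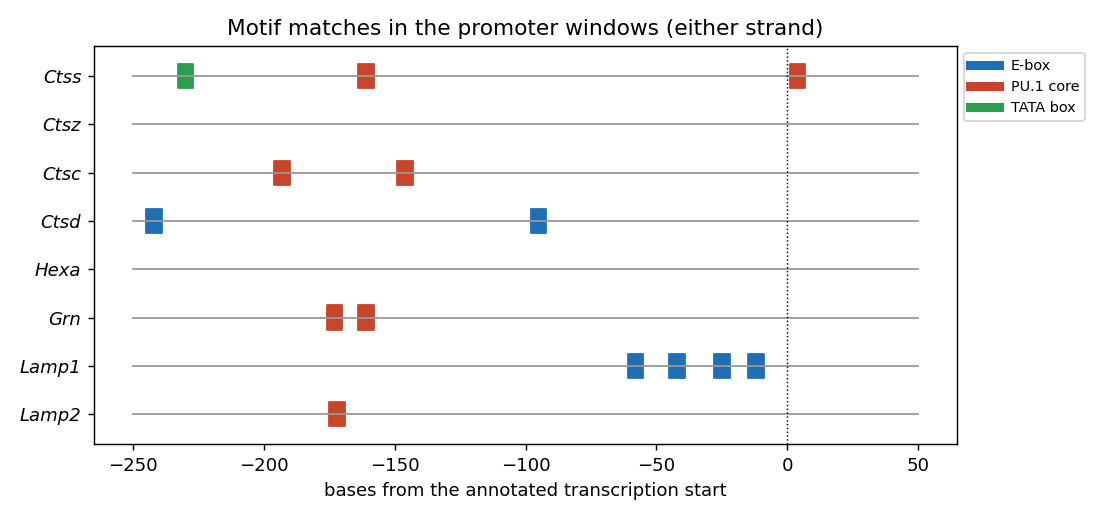
Matches to the E-box (blue), PU.1 core (red) and TATA box (green) on either strand in the promoter windows of 8 members, in bases from the annotated transcription start. *Lamp1* has its 4 E-boxes from -61 to -15, *Ctss* has PU.1 cores at -164 and 1, and *Ctsz* and *Hexa* have no match.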

How the data were processed

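The authors sequenced polyA RNA of 4 libraries from an unstranded kit, mapped reads to mm9/NCBI37 and deposited counts per gene divided by a size factor per library. The submitters' processing notes name CASAVA 1.8, TopHat 1.3.3, HTSeq 0.5.3p1 and DESeq, and the paper names DESeq 2. The deposited values, entered as a score because they are written with decimal commas, came out as whole reads for 100% of values (tolerance 0.001 reads), and no per-sample column was left unused.

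A mean of 10 or more was required, which left 16926 genes, and these were fitted with limma 3.58.1 in R 4.3.3 (lmFit, eBayes with a variance trend, prior degrees of freedom 4.17) on log2(value + 1), with calls made where the p-value after Benjamini-Hochberg adjustment was under 0.05. The test was checked on simulated data. Bounds against 0 use 3 reads per library. The exact interval of the *Ctss* ratio and the floors cover counting error only. Intervals of log2 fold changes come from limma and rest on the spread between libraries. The members and the gene lists were chosen with earlier results of these data known. Named genes are the members, *Taf4a*, up to 3 called rises and 3 called falls per list whose groups do not overlap, markers, and the 2 nearest genes of each member. *Ctsl* was added after its values were seen. Some genes that the rule names are not reported here. Of the listed genes 161 were found by name and 6 were not found. Some of those found fell below the filter and were not tested. Positions are NCBIM37 and promoters RefSeq GRCm38.p6. Plots used matplotlib 3.10.9 under Python 3.11.15. Alternatives were other pseudocounts, filters and scalings, no variance trend, voom, a replicate block and leaving out each library.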

Additional observations from a re-analysis of the deposited data

How the results depend on the processing

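Of 126 alternative fits of single members, 117 kept direction and call, 7 lost the call, 2 gained it and none changed sign. Lost were *Ctsd* without *Taf4a*-/- replicate 2, *Ctsc* without either WT replicate and without a variance trend, and *Grn* without WT replicate 2, without *Taf4a*-/- replicate 2 and without a variance trend; the cause was not tested. Members called lower were 7, 5 without a variance trend, and 5 to 7 leaving out 1 library. Their median log2 fold change ran from -1.44 to -1.10 leaving out 1 library. Other lysosomal genes called lower fell from 44 to 15 without a variance trend and ran from 14 to 57 leaving out 1 library, and those called higher ran from 2 to 4, and 2 without a variance trend. Macrophage markers called lower ran from 12 to 17. All genes called lower were 1741 without a variance trend and 1222 to 3038 leaving out 1 library, and those called higher 856 and 624 to 2476. Quantile normalization turned the share of higher calls from 39.4% to 52.2%.

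Same-numbered libraries did not deviate together over all genes (r = 0.01 across 16926 genes, which are not independent replicates). The main fit used no pairing, and this correlation cannot show whether some genes share an effect of replicate number. With a replicate block 8 members, 41 other lysosomal genes, 2657 genes lower and 1536 higher were called, *Lamp2* being the member added, as it also was without WT replicate 1. The planned edgeR and DESeq2 fits were not run.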
